A study of Mus musculus with 28 samples.

Results

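Genes of B lymphocytes, 9 in all, were followed across the whole tissue arrays of a mouse mammary carcinoma study: Cd79a, Cd79b, Blk, Ms4a1, Cr2, Fcmr, Cxcr5, Pax5 and Jchain. They were taken by name, and all of them were measured among the 18193 genes with a probe set of a single symbol. RNA was measured on Affymetrix arrays in 9 lung metastases (LungMets), 11 primary tumors (PT), 3 normal lungs (NL) and 3 normal mammary glands (NMG), with JygMC(A) cells grown as spheres and as a monolayer as 1 sample each. JygMC(A) is a mouse mammary carcinoma line. The hosts were Balb/C nude mice that received 50000 of these cells in the 4th mammary gland. PT were taken on day 30 and LungMets on day 50, while NL and NMG came from healthy Balb/C nude mice, so that every tissue came from athymic animals. The methods describe fragments of tumor and metastasis from 8 mice for the embedded frozen tissue, without naming the arrays. The labels call the tissue samples biological replicates but do not say whether any of them share a mouse. The p-values below therefore measure the spread between samples, part of which may lie within an animal. Pieces of whole tissue were used, and the labels do not say which host cells were carried along.

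B lymphocytes are recognised by a surface receptor made of a membrane antibody and a signalling pair, CD79A and CD79B. Binding of antigen is passed on by kinases of the Src family such as BLK. The transcription factor PAX5 keeps mature B cells in their lineage, and it is lost when a B cell becomes an antibody-secreting plasma cell, which makes large amounts of J chain. Nude mice lack a thymus and with it most T cells, but they do make B cells. In the mouse, the inguinal lymph node lies within the fat of the 4th mammary gland, and the follicles of a lymph node hold densely packed B cells.

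Levels below are log2 signals as deposited, and each difference is between group means on that scale, fitted for all genes with limma and adjusted by Benjamini-Hochberg over all of them. A member was called at an adjusted p under 0.05. Sample medians lay between 5.00 and 5.18. As a mark of absent transcripts, the mean of 3 Y-linked genes, which these female mice lack, lay between 2.86 and 3.23 in all tissue samples, but the probe sets of different genes have different backgrounds. For each member the cell line samples therefore served as the level reached without host tissue.

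PT replicate 5 and LungMets replicate 9 stood apart from their groups. PT replicate 5 had a mean of 10.78 over 6 lung epithelium genes, where the other PT lay between 4.51 and 7.68, and over all genes it was nearer to LungMets replicate 5 than any other of the 378 pairs of samples were to each other, with an SD of differences of 0.22. LungMets replicate 9 had a mean of 6.80 over the lung genes, where the other LungMets lay between 10.68 and 11.50, and its nearest sample was PT replicate 2. Both were kept under their labels, and results without them are given where they differ. NMG replicate 1 also had a raised mean of the lung genes, at 8.00, against 5.53 and 4.72 in the other NMG.

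Every member was higher in each of the 3 NMG than in any LungMets, PT or NL sample or either cell line sample. For 8 of the 9 members the group means ran in the order NMG, NL, PT, LungMets from high to low. For Pax5 the order was NMG, PT, LungMets, NL. Below NMG this is an order of means only. No member was called for LungMets against PT or LungMets against NL, and NL and PT were not tested against each other. For Blk the means of NL, PT and LungMets were 4.81, 4.80 and 4.73, below both cell line values of 4.83 and 5.00. In PT all 9 members fell relative to NMG, where 21 percent of all genes were called lower. In LungMets all 9 also fell relative to NMG, where 17.9 percent of all genes were called lower. The median difference of the members was -4.35 for PT and -4.80 for LungMets, while the median over all genes was 0.09 and 0.10. Centring each sample on its own median moved the median over all genes in PT against NMG to 0.25, and the share of higher genes among those called to 70.9 percent in place of 55.9, but the members were called lower with that scaling as well. In bulk tissue, fewer B cells and less of these transcripts per cell cannot be told apart. The comparisons with NMG also cross the dates given in the labels, because all NMG carry a date of their own, and that date and the tissue cannot be told apart.

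**Figure D1:**
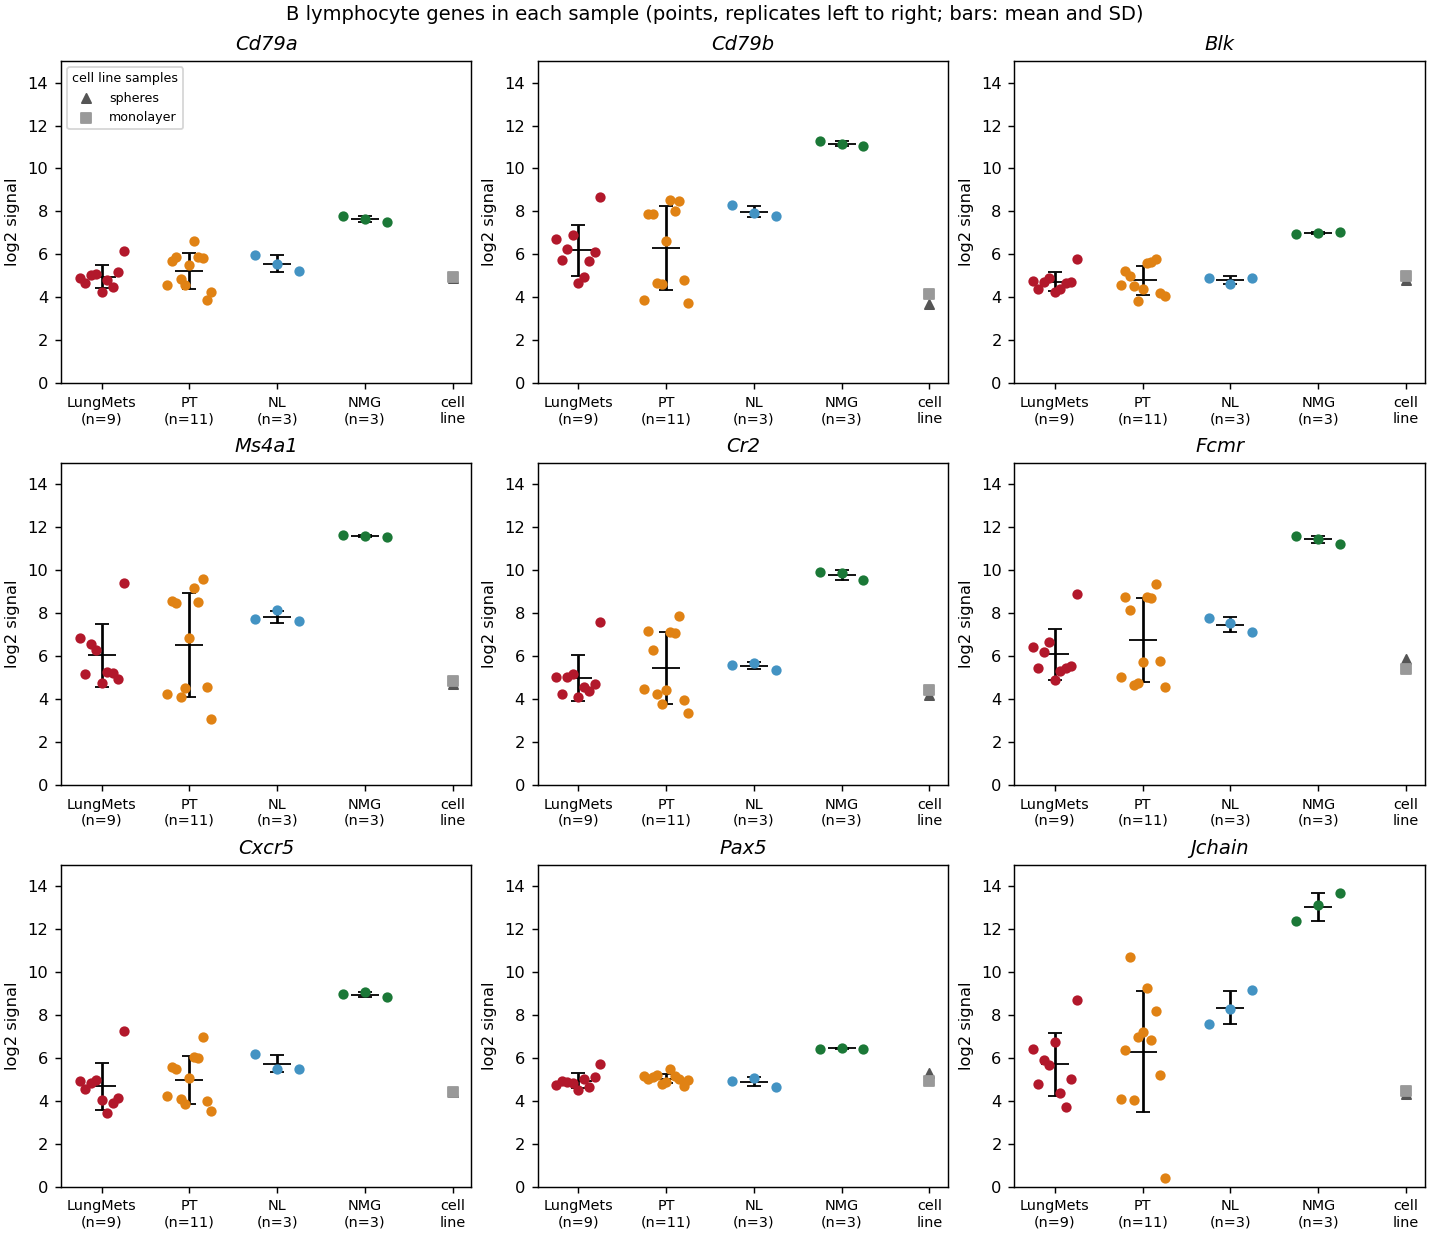
Log2 signal of the 9 members in each sample, with LungMets, PT, NL, NMG and the cell line samples from left to right. Points are samples in order of replicate number, and the black marks are the mean and SD of each group. The NMG points lie above all others in every panel, and PT points span the widest range for Ms4a1 and Jchain.

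Of the antigen receptor complex, Cd79b showed the wider range. Cd79b, which encodes the second chain of the signalling pair, ranged over 4.69, 6.10 and 8.65 (lowest, median and highest) in LungMets and over 3.75, 6.63 and 8.51 in PT. It measured 8.28, 7.92 and 7.77 in NL and 11.27, 11.12 and 11.07 in NMG. The spheres and the monolayer had 3.67 and 4.17. The lowest PT thus lay at the level of the cultured cells, and the highest PT still lay 5.91-fold below the lowest NMG. The difference of Cd79b was -4.87 ± 0.92 (SE) for PT against NMG (limma, adjusted p = 0.000108) and -4.96 ± 0.94 for LungMets against NMG (limma, adjusted p = 0.000164).

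Cd79a, the partner chain, ranged over 4.27, 4.92 and 6.17 in LungMets and over 3.87, 5.49 and 6.62 in PT. It measured 5.98, 5.54 and 5.21 in NL and 7.79, 7.65 and 7.50 in NMG, with 4.92 in spheres and 4.97 in the monolayer. Only 1 of 11 PT and 1 of 9 LungMets exceeded the higher cell line value by more than 1 log2 unit. Against NMG, Cd79a differed by -2.42 ± 0.41 in PT (limma, adjusted p = 3.34e-05) and by -2.69 ± 0.42 in LungMets (limma, adjusted p = 1.82e-05). Blk, the receptor-associated kinase, ranged over 4.24, 4.71 and 5.79 in LungMets and over 3.83, 4.58 and 5.78 in PT. It measured 4.90, 4.62 and 4.92 in NL and 6.97, 7.01 and 7.03 in NMG, with 4.83 in spheres and 5.00 in the monolayer. No LungMets, PT or NL sample of Blk exceeded the cultured cells by more than 1 log2 unit. Its difference from NMG was -2.20 ± 0.33 in PT and -2.27 ± 0.34 in LungMets.

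Of the surface receptors, Ms4a1 had the widest spread among PT. Ms4a1, which encodes the B cell marker CD20, ranged over 4.74, 5.25 and 9.40 in LungMets and over 3.09, 6.85 and 9.61 in PT. It measured 7.72, 8.14 and 7.62 in NL and 11.64, 11.60 and 11.53 in NMG, with 4.68 in spheres and 4.82 in the monolayer. Of Ms4a1, 6 of 11 PT and 4 of 9 LungMets exceeded the cultured cells by more than 1 log2 unit, and the lowest PT lay below them. The SD of Ms4a1 over PT was 2.44, which 0.038 percent of all genes exceeded, and the median SD of all genes in PT was 0.23. The difference from NMG was -5.07 ± 1.15 in PT (limma, adjusted p = 0.000739) and -5.55 ± 1.17 in LungMets (limma, adjusted p = 0.000536). A separate probe set of Ms4a1 gave -4.44 ± 0.94 and -5.09 ± 0.96.

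Fcmr, a receptor for the Fc part of IgM, ranged over 4.87, 5.52 and 8.89 in LungMets and over 4.57, 5.77 and 9.36 in PT. It measured 7.77, 7.53 and 7.11 in NL and 11.59, 11.46 and 11.24 in NMG, with 5.86 in spheres and 5.42 in the monolayer. Of Fcmr, 5 PT and 1 LungMets exceeded the cultured cells by more than 1 log2 unit. Fcmr differed from NMG by -4.68 ± 0.93 in PT (limma, adjusted p = 0.000197) and by -5.34 ± 0.95 in LungMets (limma, adjusted p = 8.42e-05).

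Cr2 encodes complement receptors carried by B cells and by follicular dendritic cells, the stromal cells that hold antigen in a follicle. It ranged over 4.11, 4.70 and 7.60 in LungMets and over 3.35, 4.48 and 7.88 in PT. It measured 5.59, 5.69 and 5.37 in NL and 9.93, 9.88 and 9.53 in NMG, with 4.17 in spheres and 4.43 in the monolayer. The 3 NL lay below the highest 5 PT for Cr2, and the highest NL was 14.3-fold below the lowest NMG. Cxcr5, the receptor that guides B cells into follicles, ranged over 3.42, 4.57 and 7.26 in LungMets and over 3.54, 5.05 and 6.96 in PT. It measured 6.19, 5.50 and 5.50 in NL and 8.98, 9.05 and 8.81 in NMG, with 4.39 in spheres and 4.42 in the monolayer. Against NMG, Cr2 differed by -4.35 ± 0.80 in PT and -4.80 ± 0.81 in LungMets, and Cxcr5 by -3.96 ± 0.62 and -4.27 ± 0.64.

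Pax5 moved least. It ranged over 4.49, 4.89 and 5.71 in LungMets and over 4.67, 5.01 and 5.46 in PT. It measured 4.93, 5.08 and 4.66 in NL and 6.43, 6.46 and 6.42 in NMG, with 5.30 in spheres and 4.94 in the monolayer. Only NMG exceeded the cultured cells by more than 1 log2 unit, and the SD of Pax5 over PT was 0.22, near the median of all genes. The difference from NMG was -1.41 ± 0.17 in PT (limma, adjusted p = 2.33e-07) and -1.50 ± 0.17 in LungMets (limma, adjusted p = 1.88e-07). A separate probe set of Pax5 gave -0.35 ± 0.13 and -0.39 ± 0.13.

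Jchain, whose product joins the subunits of secreted IgM and IgA, had the largest differences of the 9. It ranged over 3.71, 5.69 and 8.68 in LungMets and over 0.40, 6.81 and 10.70 in PT. It measured 7.59, 8.27 and 9.15 in NL and 12.36, 13.10 and 13.66 in NMG, with 4.30 in spheres and 4.46 in the monolayer. The value of 0.40 belonged to PT replicate 11 and lay far below both cell line samples and every other sample, whose lowest was 3.71. The difference from NMG was -6.75 ± 1.30 in PT (limma, adjusted p = 0.000136) and -7.34 ± 1.33 in LungMets (limma, adjusted p = 1e-04).

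Promoter sequence from RefSeq (build GRCm38.p6) was at hand for 5 of the 9 members (Cd79a, Cr2, Fcmr, Pax5 and Jchain). The sequences were searched for short motifs as a description, and no link between these letters and the levels was tested. The octamer ATGCAAAT, the site of the B cell coactivated factor OCT2, was not found on either strand in the 250 bases before the start of any of these 5, while 1.6 percent of 32851 promoters held it. The E box CAGGTG, searched on both strands, is a sequence bound by E proteins of early B cells. It was found once each in Cd79a and Cr2, while 17.2 percent of promoters held it. The E box was searched after the octamer gave no match. A match is a description of letters and not of binding. The stretches are shown 5′ to 3′ on the strand of the gene, with the E box in capitals, which begins 154 bases before the start of Cd79a (chr7:24897303-24897388, plus strand) and 88 bases before that of Cr2 (chr1:195176762-195176847, minus strand).
Cd79a: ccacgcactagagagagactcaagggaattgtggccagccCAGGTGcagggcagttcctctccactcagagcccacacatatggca
Cr2: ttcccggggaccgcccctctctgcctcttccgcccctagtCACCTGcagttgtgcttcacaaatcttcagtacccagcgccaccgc

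Primary tumors differed widely among themselves. The mean of the 9 members was 7.45, 7.39, 7.0, 6.86 and 6.69 in PT replicates 9, 7, 3, 8 and 2. It was 5.63 in PT replicate 6. It was 4.63, 4.56, 4.49, 4.47 and 3.55 in PT replicates 5, 10, 4, 1 and 11, against 4.68 in spheres and 4.74 in the monolayer. The mean of PT replicate 11 was lowered by its Jchain value of 0.40. In PT replicates 2, 3, 8 and 9, 6 of the 9 members exceeded both cell line samples by more than 1 log2 unit, in PT replicate 7, 7 did, and in PT replicates 1, 4, 10 and 11 none did. Each of the dates in the labels that hold tumors had PT of both kinds, since replicates 1 to 4 share the first date and replicates 5 to 11 the second. The members other than Pax5 rose and fell together over the 11 PT. Pairwise Pearson r of all 9 members lay between 0.24 and 0.99, with a median of 0.87 over 36 pairs. For Pax5, r lay between 0.24 with Jchain and 0.68 with Cd79a. The lowest r among the other pairs was 0.55, that of Blk and Jchain. The samples were few, and part of them were perhaps from the same mouse.

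**Figure D2:**
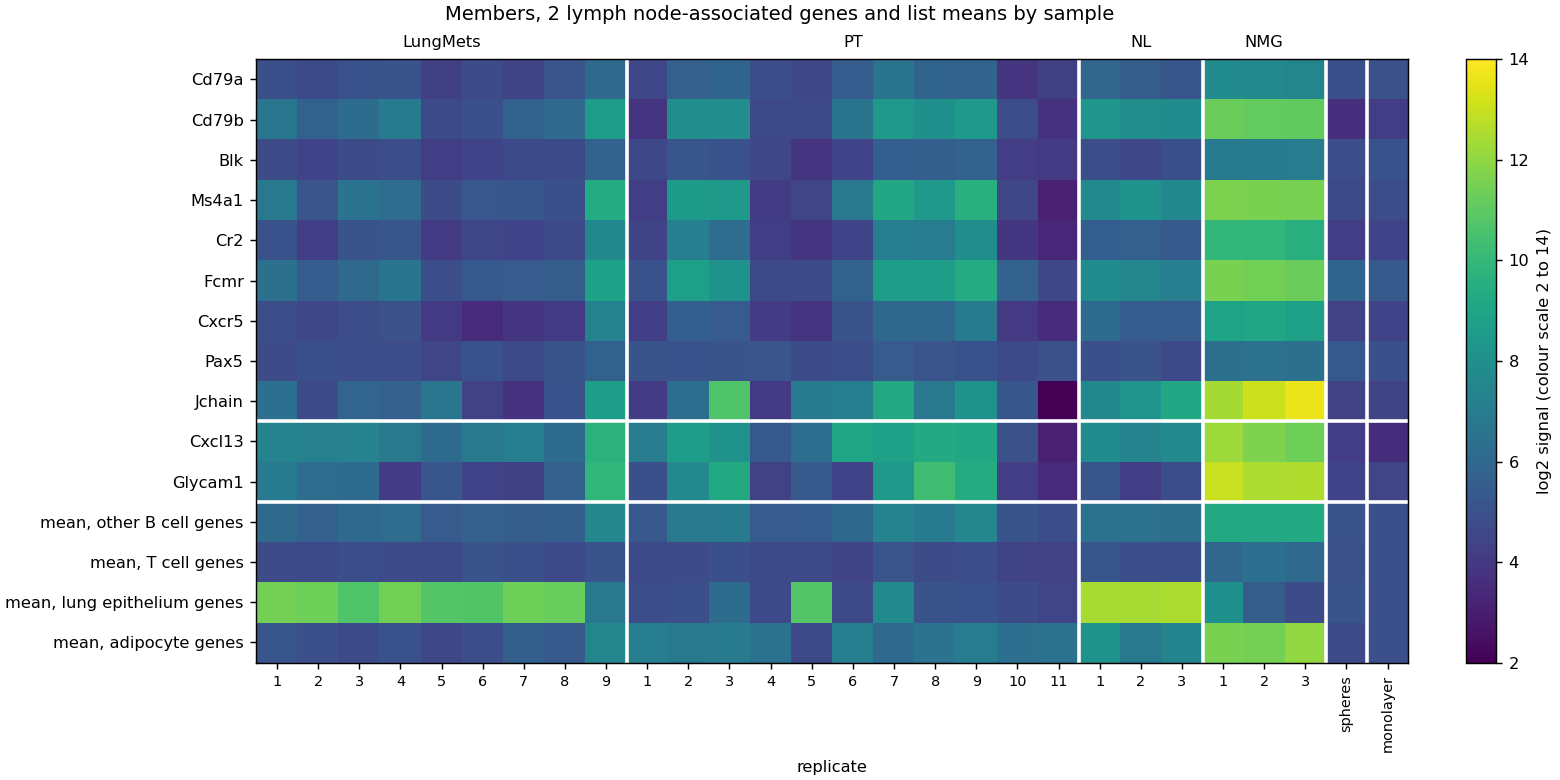
Log2 signal by sample (columns) of the 9 members, of Cxcl13 and Glycam1, and of the mean over 4 lists of other genes (rows). PT replicates 2, 3, 7, 8 and 9 and LungMets replicate 9 are bright for most members, for Cxcl13 and for Glycam1, and the lung epithelium row marks PT replicate 5 and LungMets replicate 9.

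Among genes of lymph nodes, Glycam1 and, in part, Cxcl13 were high in the same tumors as the members. Lyve1 and Il7r were highest in PT replicate 5 and next highest in those same tumors. Glycam1, a ligand for lymphocytes on the high endothelial vessels of lymph nodes that is also made by mammary epithelium in milk, ranged over 4.12, 5.70 and 9.90 in LungMets and over 3.43, 5.37 and 10.34 in PT. It measured 5.23, 4.23 and 4.83 in NL and 12.97, 12.50 and 12.57 in NMG. The PT with the highest Glycam1 were replicates 8, 9, 3, 7 and 2, at 10.34, 9.40, 9.28, 8.43 and 7.63. Cxcl13, the ligand of CXCR5 made by stromal cells of the follicle, ranged over 6.18, 7.13 and 9.69 in LungMets and over 3.12, 8.14 and 9.33 in PT, against 12.24, 11.69 and 11.37 in NMG and 4.16 and 3.59 in spheres and monolayer. PT replicate 6, with a mean of the members of 5.63, had 9.05 for Cxcl13, above PT replicates 7, 2 and 3. Both genes were highest in LungMets in replicate 9. Lyve1, a receptor of lymphatic vessels, and Il7r, a cytokine receptor of lymphocytes, were highest among PT in replicate 5, at 8.79 and 6.48, where the members were low. That sample had lung epithelium genes at the level of LungMets. In NL, Lyve1 measured 9.26, 10.22 and 10.35, and Il7r 5.97, 5.99 and 6.58. Whether lung tissue contributed to the values of PT replicate 5 was not tested. In PT replicates 2, 3, 7, 8 and 9, Lyve1 measured 7.05, 6.55, 6.99, 6.81 and 7.66. Il7r measured 5.81, 6.18, 6.34, 5.99 and 6.08 there. In the remaining PT, Lyve1 reached at most 6.25 and Il7r at most 5.60. Chst4, an enzyme of high endothelial vessels, lay between 2.62 and 3.06 in all PT and between 3.19 and 3.47 in NMG. Both are near the Y-linked mean of 2.86 to 3.23, so this probe set says little about differences between tumors. Madcam1, Fut7 and Prox1 of the same list varied little over PT, with SDs of 0.18, 0.16 and 0.21 against 2.52 for Glycam1. Fut7 and Prox1 were highest in PT replicate 1, at 5.49 and 3.32, where the members were low. Madcam1 measured 4.97, 4.96 and 5.25 in PT replicates 2, 3 and 7. It measured 4.78 and 4.76 in PT replicates 8 and 9, below the 4.82 of PT replicate 5. The mean of the 7 measured genes of this list had a Pearson r with the mean of the members of 0.82 over PT (0.74 without the 2 farthest samples) and of 0.65 over LungMets (-0.32 without the 2 farthest samples). Whether lymph node tissue in the pieces contributed to the members' levels was not tested.

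Among 30 other B cell genes, 26 were measured. Of these, 25 fell in PT against NMG, with a median difference of -3.09, and 25 fell in LungMets, with a median of -3.14. The shares of all genes called lower were 21 and 17.9 percent. Bcl11a was not called in either (-0.65 in PT, limma, adjusted p = 0.447). The largest falls in PT were those of Ighm (8.65 in PT, 14.27 in NMG), the heavy chain of IgM, of H2-Ob (5.61 and 10.45), a chain of an antigen-loading cofactor of B cells, of Pou2af1 (5.34 and 10.17), the coactivator of octamer factors, and of Bank1 (6.04 and 10.81), a scaffold of receptor signalling. Over the 11 PT the mean of this list followed the mean of the members with a Pearson r of 0.99 and a Spearman rho of 0.96, and r was also 0.99 without the 2 samples farthest from the median. Over the 9 LungMets, r was 0.99 and rho 0.83, and r was 0.95 without the 2 farthest samples.

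Ighm and Jchain did not follow the surface receptors in every tumor. In PT replicate 5 and LungMets replicate 5, Ighm measured 10.01 and 10.07, and Jchain 6.98 and 6.72, while Ms4a1 measured 4.52 and 4.74, at the level of the cultured cells. These were the nearest of all 378 pairs of samples, so they may not count as separate cases. In NL, Ighm measured 11.08, 10.91 and 11.21, and Ms4a1 7.72, 8.14 and 7.62. In PT replicate 6, Ighm reached 10.35 and Cxcl13 9.05, while Cr2 was at 4.43 and Glycam1 at 4.43. The spheres and the monolayer had 7.01 and 6.76 for Ighm. These samples were picked after their values were seen. Ighm has 11 probe sets, of which only that with the highest mean was read here. Other antibody genes did not show the same split. Igha measured 6.46 in PT replicate 5 and 6.43 in LungMets replicate 5, where the group medians were 6.65 and 6.93. Ighv14-2 followed the mean of the members over PT with a Pearson r of 0.985. Among 9 measured genes of antibody-secreting cells, 4 fell and 2 rose in PT against NMG. Of all genes, 21 percent were called lower and 26.7 percent higher in that contrast. Mzb1, a chaperone of antibody assembly, measured 6.51 in PT and 10.56 in NMG. Irf4 (4.48 and 7.62), a factor needed for plasma cells, and Tnfrsf17 (3.18 and 5.35), the receptor BCMA, also fell, while Fkbp11 (8.03 and 6.73), a chaperone of the secretory pathway, rose.

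Of the germinal center list, 4 of 7 measured genes fell and 1 rose in PT against NMG. The shares of all genes there were 21 percent lower and 26.7 percent higher. Gcsam, a gene of germinal center B cells, measured 2.83 in PT and 5.20 in NMG. Rgs13, another, measured 2.72 in PT and 4.98 in NMG, where NMG replicate 1 stood at 3.16 and the other NMG at 6.28 and 5.51. The gene that rose was Mybl1 (6.54 and 5.10). Of 6 genes of B cell precursors, 3 fell in PT against NMG. Rag1, which cuts antibody genes for joining, measured 2.65 in PT and 4.29 in NMG, and Rag2, its partner, lay between 2.68 and 3.31 in all tissue samples. Of 9 measured chemoattractants and survival factors, 8 fell. The largest falls were those of Ltb (6.52 and 11.50), a lymphotoxin chain that shapes lymph nodes, Cxcl13 (7.27 and 11.77), Ccr7 (4.62 and 8.58), a homing receptor, and Cxcl12 (8.78 and 11.43), a stromal chemokine. Of 7 measured genes of lymph node vessels and stroma, 6 fell, among them Glycam1 (6.52 and 12.68), Il7r (5.66 and 8.25), Lyve1 (6.69 and 9.08) and Madcam1 (4.82 and 5.71).

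Markers of other cells moved with the same contrast, in which 21 percent of all genes were called lower and 26.7 percent higher. Of 14 measured T cell genes, 12 fell in PT against NMG, with a median of -1.36. The mean of the list lay between 4.66 and 5.06 in LungMets, between 4.34 and 5.17 in PT, between 4.87 and 5.19 in NL and between 5.95 and 6.40 in NMG, with 4.96 and 4.91 in spheres and monolayer. Cd3g, a chain of the T cell receptor complex, measured 4.35 in PT and 7.48 in NMG. All 5 measured adipocyte genes fell, with a median of -5.79, and their mean lay between 4.60 and 7.45 in LungMets, between 4.67 and 7.18 in PT, between 6.83 and 8.10 in NL and between 11.48 and 12.05 in NMG. Of plasmacytoid dendritic cell genes, 1 of 2 measured fell. NK cell genes (5 of 6), macrophage genes (4 of 8), endothelial genes (4 of 6) and mammary epithelium genes (3 of 7) also fell in PT against NMG, and no gene of these lists rose. The part of these tissues in the falls of the members was not tested. Over the 11 PT the adipocyte mean had a Pearson r of 0.24 with the mean of the members, and the mammary epithelium mean an r of -0.53. The T cell mean had an r of 0.81, over a range of 4.34 to 5.17 that includes the level of the cultured cells.

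**Figure D3:**
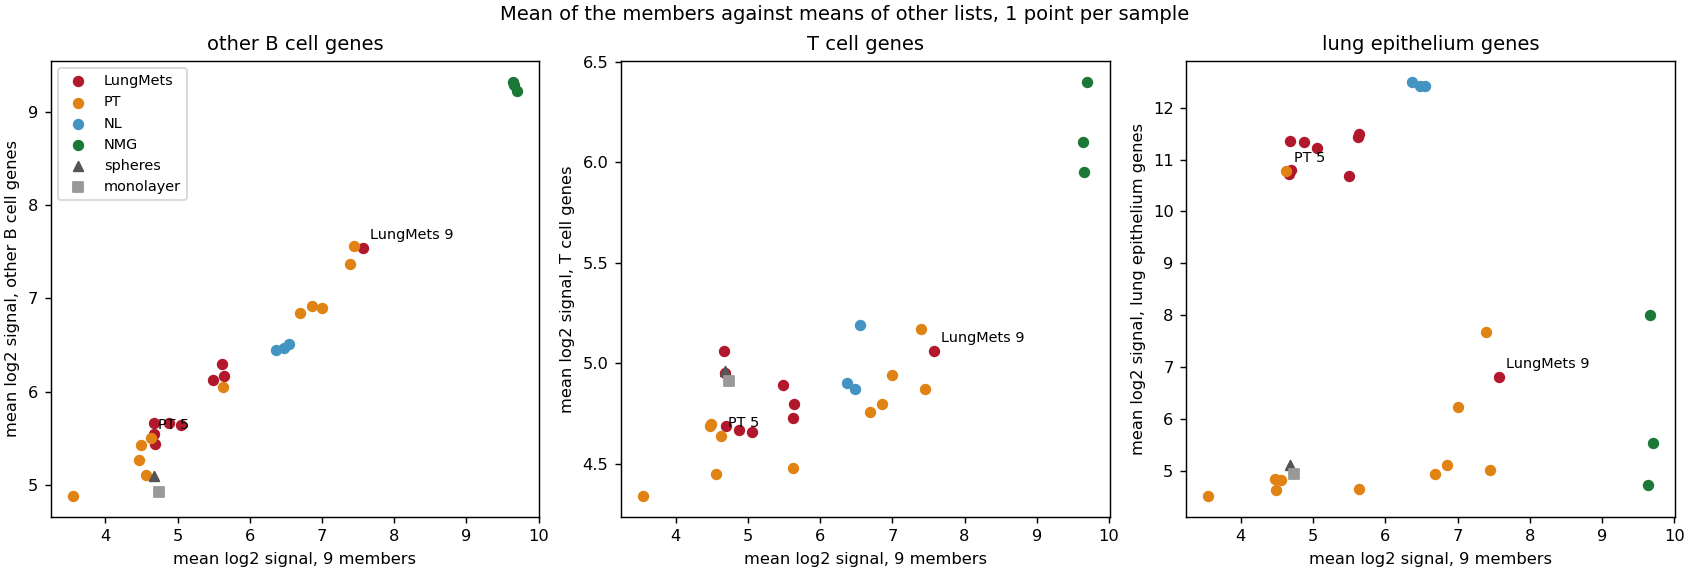
Mean log2 signal of 26 other B cell genes, 14 T cell genes and 6 lung epithelium genes (vertical axes) against that of the 9 members (horizontal axes), with 1 point per sample. The other B cell genes rise with the members across all groups, while the T cell means of tumors stay between 4.34 and 5.17, and PT replicate 5 and LungMets replicate 9 lie among samples of the other group in the lung panel.

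Lung metastases were compared with primary tumors to ask whether the members differ between these groups. LungMets were taken on day 50 and PT on day 30, so site of growth and day cannot be told apart. None of the 9 was called with limma, with 0 of them at an unadjusted p under 0.05, and 6.13 percent of all genes were called lower and 15.2 percent in either direction. Of the genes called, 59.5 percent were higher, and 25 percent with each sample centred on its median. The differences lay between -0.66 for Fcmr (95% interval -1.99 to 0.66) and -0.07 for Blk (95% interval -0.54 to 0.40). For Ms4a1 the difference was -0.47 with an interval from -2.10 to 1.16. The smallest adjusted p among the 9 was 0.54. Within the first date alone and within the second date alone none of the 9 was called, and the effect did not differ detectably between dates (limma interaction, adjusted p = 1 for all 9, with 0 of 18193 genes called and 530 at an unadjusted p under 0.05). Without PT replicate 5 and LungMets replicate 9 together, also none was called. Other B cell genes gave 0 of 26 calls, and Glycam1 and Cxcl13 were not called. In the same contrast all 6 lung epithelium genes rose, with a median difference of 6.01, and all 6 endothelial genes rose, with a median of 1.70, while 3 of 5 adipocyte genes fell.

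LungMets replicate 9 carried the highest LungMets value of each of the 9 members. The mean of the members was 7.57 there, and the other LungMets lay between 4.67 and 5.64. LungMets replicates 1, 2, 3 and 4, of the first date, had 5.64, 4.88, 5.49 and 5.62. LungMets replicates 5, 6, 7 and 8, of the second date as is replicate 9, had 4.69, 4.67, 4.68 and 5.05.

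Lung metastases were set against normal lung for the tissue of the site itself. None of the 9 members passed with limma, with 0 at an unadjusted p under 0.05, where 22.4 percent of all genes were called lower. The largest differences were those of Jchain, at -2.64 ± 1.33 (limma, adjusted p = 0.108), of Cd79b, at -1.80 ± 0.94 (limma, adjusted p = 0.12), and of Ms4a1, at -1.78 ± 1.17 (limma, adjusted p = 0.222). For Cd79a, Cd79b, Ms4a1, Cr2, Fcmr, Cxcr5 and Jchain, 8 of the 9 LungMets lay below all 3 NL. For 6 of these 7 genes the remaining LungMets, replicate 9, lay above all 3 NL, and for Jchain it lay within their range. Without LungMets replicate 9, Cxcr5 was called, at -1.38 (limma, adjusted p = 0.0384). With only LungMets and NL in the fit, Cd79b (limma, adjusted p = 0.0316) and Jchain (limma, adjusted p = 0.0169) were called. Of the 26 measured other B cell genes, 4 fell and 2 rose, beside 22.4 percent of all genes called lower and 23.8 percent higher. Ighm measured 8.08 in LungMets and 11.07 in NL, and Cd74, the chain that guides antigen loading, 8.71 and 10.24. Btk (5.56 and 6.48), a kinase of the receptor, also fell, while Bcl11a (7.44 and 5.23), which is a gene of B cells and also of mammary epithelium, rose. All NL carry a date of their own, so that date and tissue cannot be told apart here either.

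Normal lung was set against normal mammary gland to order the levels, a contrast outside those named in the design. Of the 9 members, 8 fell, and 14.5 percent of all genes were called lower. Cr2 measured 5.55 in NL and 9.78 in NMG, a difference of -4.23 ± 1.00 (limma, adjusted p = 0.00185). Jchain differed by -4.70 ± 1.63 (limma, adjusted p = 0.0306), and Blk by -2.19 ± 0.41 (limma, adjusted p = 0.000205). Ms4a1 was not called, at -3.76 ± 1.44 (limma, adjusted p = 0.0514), although its 3 NL and 3 NMG values lay far apart. It was called with only the 2 groups in the fit (limma, adjusted p = 2.4e-06). A separate probe set of Ms4a1 was called in the full fit, at -4.26 ± 1.18 (limma, adjusted p = 0.00814). Cd79b was called in the full fit (limma, adjusted p = 0.0401) and not after leaving out any single NL or NMG. Jchain lost its call without NL replicate 1, NL replicate 2, NMG replicate 2 or NMG replicate 3 (limma, adjusted p = 0.0928, 0.0714, 0.0748 and 0.0883). The spread over all 26 tissue samples enters these tests, and it was wider in tumors: the SD of Ms4a1 was 1.47 in LungMets and 2.44 in PT, against 0.27 in NL and 0.06 in NMG. Among the neighbours in the order of levels, NL and PT were not tested against each other, and their ranges overlap for each of the 9 members.

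**Figure D4:**
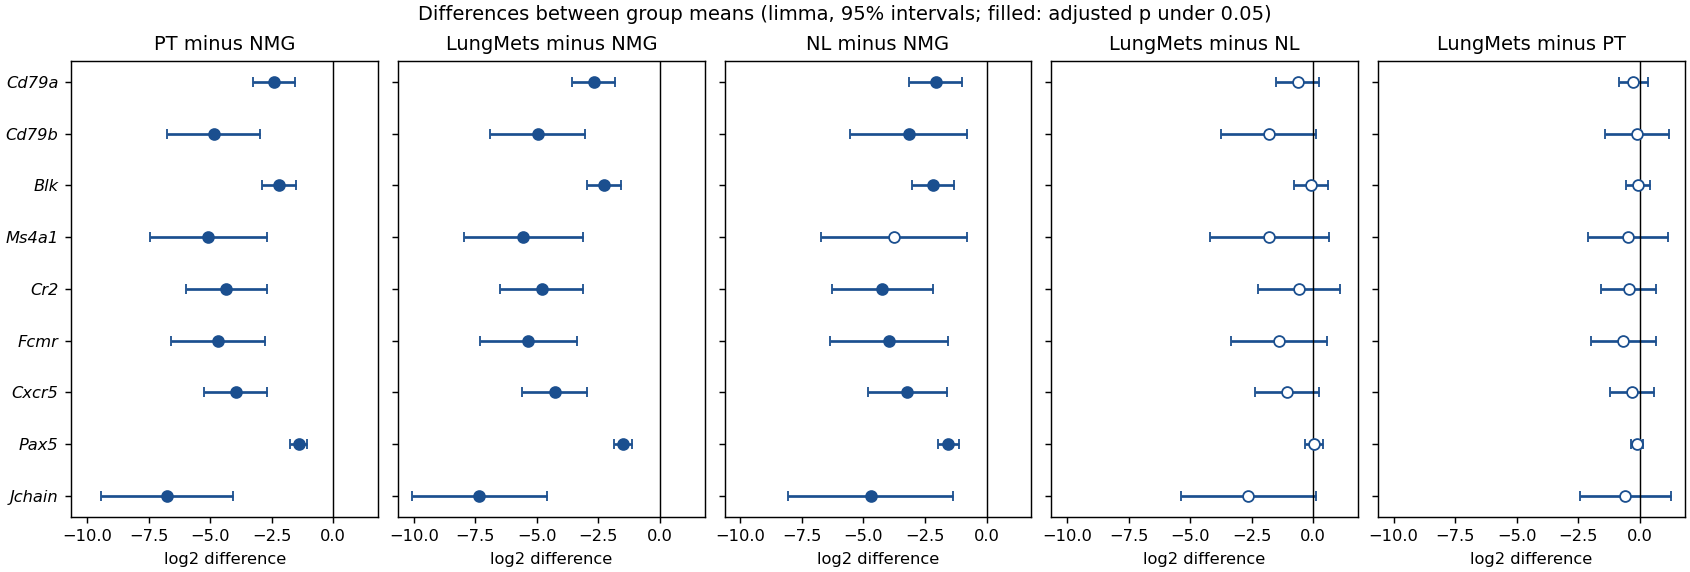
Differences of group means on the log2 scale for the 9 members in 5 comparisons, with 95% intervals. Filled points were called at an adjusted p under 0.05, and open points were not. All intervals against NMG lie below 0, and for LungMets against NL and LungMets against PT every interval includes 0.

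The genes with the pattern most like that of the members were sought over all other genes. Over the 26 tissue samples the 10 highest Pearson correlations with the mean of the members lay between 0.98 and 0.99, over samples of which the 3 NMG lie far from the rest. They belonged to Spib, Btla, Ccr6, H2-Ob, Bank1, Ikzf3, Iglv1, Ighv14-2, B3gnt5 and Cd22. Spib, a transcription factor of B cells and plasmacytoid dendritic cells, had an r of 0.99 and ranged over 3.80 to 7.26 in LungMets, 3.55 to 7.50 in PT, 5.77 to 6.33 in NL and 9.64 to 9.82 in NMG. Over the 11 PT alone, the 10 highest lay between 0.97 and 0.99. Btla, Ighv14-2, Cd22, H2-Ob, Spib and Bank1 were among them again, and the others were Serpina1b, Pou2af1, Tbc1d10c and Fcrl1. Btla, an inhibitory receptor of lymphocytes, had an r of 0.99 there. Serpina1b, a protease inhibitor best known from liver, had an r of 0.98 and a Spearman rho of 0.99, and ranged over 4.97 to 8.28 in LungMets, 3.11 to 8.47 in PT, 7.68 to 8.68 in NL and 10.89 to 11.21 in NMG. Its probe set may also read near-identical members of the same gene family.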

How the data were processed

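The authors deposited log2 values per probe set of Affymetrix arrays of mouse tissue and cells, made with RMA (in the Partek software); background correction, quantile scaling and probe summary had therefore been done, and raw intensities were not used here. Of 45101 probe sets, 34958 carried 1 gene symbol, 932 several and 9211 none in the platform annotation. The 34945 of the first kind that are no array controls were used, of which 34741 matched RefSeq (GRCm38.p6) by gene ID. For each of 18193 genes the probe set with the highest mean over 26 tissue samples was taken, with no filter on low values.

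Differences were tested with limma 3.58.1 in R 4.3.3 (lmFit and eBayes, 1 mean per group over LungMets, PT, NL and NMG), and p-values were adjusted by Benjamini-Hochberg across the 18193 genes. The cell line samples, with 1 array each, entered no test. Groups came from the labels. The fit was tested on simulated data. The number of arrays limits the precision. The members and gene lists were chosen with earlier results of these data known, so list counts are descriptions. Named genes are the members, up to 4 called genes of each list by size of difference, and the 10 genes most correlated with the mean of the members. List genes without a single-symbol probe set were not analysed here.

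Alternatives were the mean of all probe sets of a gene, a filter at the median level, median centring, repeated quantile scaling, array weights, only the groups compared, a fold change over 2, a replicate block, the label dates, and leaving samples out.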

Additional observations from a re-analysis of the deposited data

Results flagged for a closer look

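In the 9 LungMets, replicate 9 lay farther from its nearest neighbour than Dixon's 95% limit allows for 6 of the 9 members, and it was the highest sample each time. It measured 6.17 for Cd79a, 5.79 for Blk, 9.40 for Ms4a1, 7.60 for Cr2, 8.89 for Fcmr and 7.26 for Cxcr5, and the gap to the next sample took between 0.529 and 0.691 of the whole range. Chance flags about 1 in 20 groups, and the members were correlated, so the 6 flags are not 6 independent ones. The mean of 6 lung epithelium genes was 6.80 in this sample, and the adipocyte mean was 7.45, against 4.60 to 5.63 in the other LungMets. The origin of the sample was not tested.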

How the results depend on the processing

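All 9 members stayed lower in PT and in LungMets against NMG, with 9 calls each, in every alternative but 1: with only genes above the median level, 4 of the 9 were tested and called, for PT, LungMets and NL against NMG alike. Leaving out single samples gave 9 to 9 calls for PT and for LungMets against NMG, 0 to 0 for LungMets against PT, 0 to 1 for LungMets against NL and 6 to 7, in place of 8, for NL against NMG. NL against NMG gave 9 calls with the mean of probe sets, median centring, repeated quantile scaling or array weights. It also gave 9 with only the groups compared and without PT replicate 5 and LungMets replicate 9 together.

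LungMets against NL, with 0 calls, gave 2 with array weights, 2 with only the groups compared, 1 without PT replicate 5 and LungMets replicate 9 together, and 7 with a replicate block, a paired fit over the 3 shared numbers, which holds only LungMets replicates 1 to 3 and so not replicate 9. In that fit the adjusted p was 0.0187 for Ms4a1. The replicate block gave 9 calls for PT, LungMets and NL against NMG, and 0 for LungMets against PT. The cause was not tested. The numbers were not treated as pairs, since no label names a shared animal. Same-numbered LungMets and PT had correlations of their deviations from the group means between -0.233 and 0.481 over 9 pairs. The correlations were 0.087, -0.233 and 0.116 for replicates 1 to 3 and lay between 0.272 and 0.481 for replicates 4 to 9. The nearest of all 378 pairs of samples, PT replicate 5 and LungMets replicate 5, also shared a number. Of the 9 LungMets, 1 correlated best with the PT of its own number.

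Signs turned only for uncalled differences near 0. For LungMets against PT, Cd79b lay between -0.40 and 0.13 without single samples and turned to 0.3317 in the first date alone, Blk lay between -0.2059 and 0.0233 without single samples, and Pax5 turned to 0.0167 in the second date alone. For LungMets against NL, Pax5 (0.04) turned to -0.0102 with repeated quantile scaling, -0.0712 with array weights, -0.057 without PT replicate 5 and LungMets replicate 9 and -0.0402 with the replicate block, and lay between -0.0758 and 0.1358 without single samples. Over all genes, LungMets against PT gave 2758 calls, 5024 with median centring, 4156 with array weights, 1392 in the first date alone and 0 in the second (2669 at an unadjusted p under 0.05, limma). NL against NMG gave 5251 calls and 8061 with array weights. With a fold change over 2 required as well, 3137 of 8671 genes remained for PT against NMG, 564 of 2758 for LungMets against PT, 2961 of 8407 for LungMets against NL, 2422 of 7465 for LungMets against NMG and 2738 of 5251 for NL against NMG. With only genes above the median level the counts were 5341, 1951, 5299, 4261 and 3228 in that order.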
